A study of Homo sapiens with 6 samples.

Results

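Annexins are proteins that bind acidic phospholipids of the inner face of membranes when calcium rises, and that share a conserved core joined to an N-terminal arm which differs between members. The arm carries the binding sites for partner proteins, many of them small EF-hand calcium sensors of the S100 family. Annexins act in vesicle traffic, in the sealing of torn plasma membranes, in the docking of plasminogen at the cell surface and, for secreted ANXA1, in the damping of inflammation.

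The 9 annexin genes described here are ANXA1, ANXA2, ANXA3, ANXA4, ANXA5, ANXA6, ANXA7, ANXA10 and ANXA11. They were taken from a table of 23524 genes by their gene names, and 8 of them passed the filter on low values (a mean of at least 0.1 FPKM over all libraries) that left 17222 genes for testing. ANXA10, which did not pass, is described by its values. The libraries came from Hep G2, a human liver tumor cell line, as control cells (control, 3 libraries) or as cells that stably overexpress EFTUD2 (EFTUD2, 3 libraries). EFTUD2 encodes a GTPase of the spliceosome. The study describes Hep G2 lines infected with an EFTUD2 lentivirus or a vector lentivirus, and stable lines selected in puromycin. The labels do not say that the sequenced controls carried the vector. The study's methods and legends speak of independent experiments in general, but neither they nor the labels say for these libraries whether the 3 of a group came from separate cultures, or whether each line was a pool or 1 clone, so p-values may measure only the spread between these libraries. The question asked of the annexins was whether their mRNA differed between the 2 groups.

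Levels are FPKM, fragment counts divided by transcript length and by library size, as deposited by the authors, and values of a group are given in the order of replicates 1 to 3. As FPKM is per length, levels of different genes can be set side by side. Differences are on the log2 scale of FPKM + 1, which understates the change of low genes, and were tested with limma over all 17222 genes with Benjamini-Hochberg adjustment. With 3 libraries a group, an exact permutation test (two-sided) cannot go below p = 0.1.

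Some facts of the whole table bear on the annexins. EFTUD2 mRNA lay between 41.1 and 54.4 FPKM in the controls and between 102.9 and 109.5 FPKM in the EFTUD2 libraries. EFTUD2 replicate 3 stood apart from the other EFTUD2 libraries: its log2 values differed from those of replicates 1 and 2 with an SD over genes of 0.51 and 0.60, against 0.23 between replicates 1 and 2. It was no closer to the controls, with an SD of 0.53, 0.63 and 0.54 from control replicates 1 to 3. Over the whole table, 0 genes (0%) had an adjusted p under 0.05 with limma. Even EFTUD2, whose groups did not overlap, had a log2 difference of 1.16 with an adjusted p of 0.13 in limma. An adjusted p above 0.05 thus does not show that a gene was unchanged. As EFTUD2 replicate 3 stood apart, the log2 difference without it is also given for the members tested.

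Of the members tested, ANXA1 had the largest log2 difference between the groups, in the fit as described and in all 16 alternatives. It lay near the bottom of the range in control cells and reached a moderate level in EFTUD2 replicates 1 and 2, but was far lower in replicate 3. ANXA6 was slightly higher in each EFTUD2 library than in each control, and the groups of the other 7 members overlapped. Of the 8 members tested, 0 had an adjusted p under 0.05 with limma. At an unadjusted p under 0.05, 1 member (ANXA1) was higher and 0 were lower, where 4.4% and 7.9% of all genes tested were higher and lower. ANXA6 also fell under this threshold in some alternative fits, given below. The groups did not overlap, with EFTUD2 higher, for 2 members against 7.92% of all genes tested, and with EFTUD2 lower for 0 members against 19.4%. Relative to all genes the balance depends on the scaling: 757 genes were higher and 1361 lower at the unadjusted threshold with the values as deposited, and 1124 and 846 after median of ratios scaling. The median log2 difference of the 8 members was -0.05, beside -0.07 over all genes tested. An FPKM value cannot tell a change in every cell from a change in the share of cells that carry the mRNA.

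**Figure D1:**
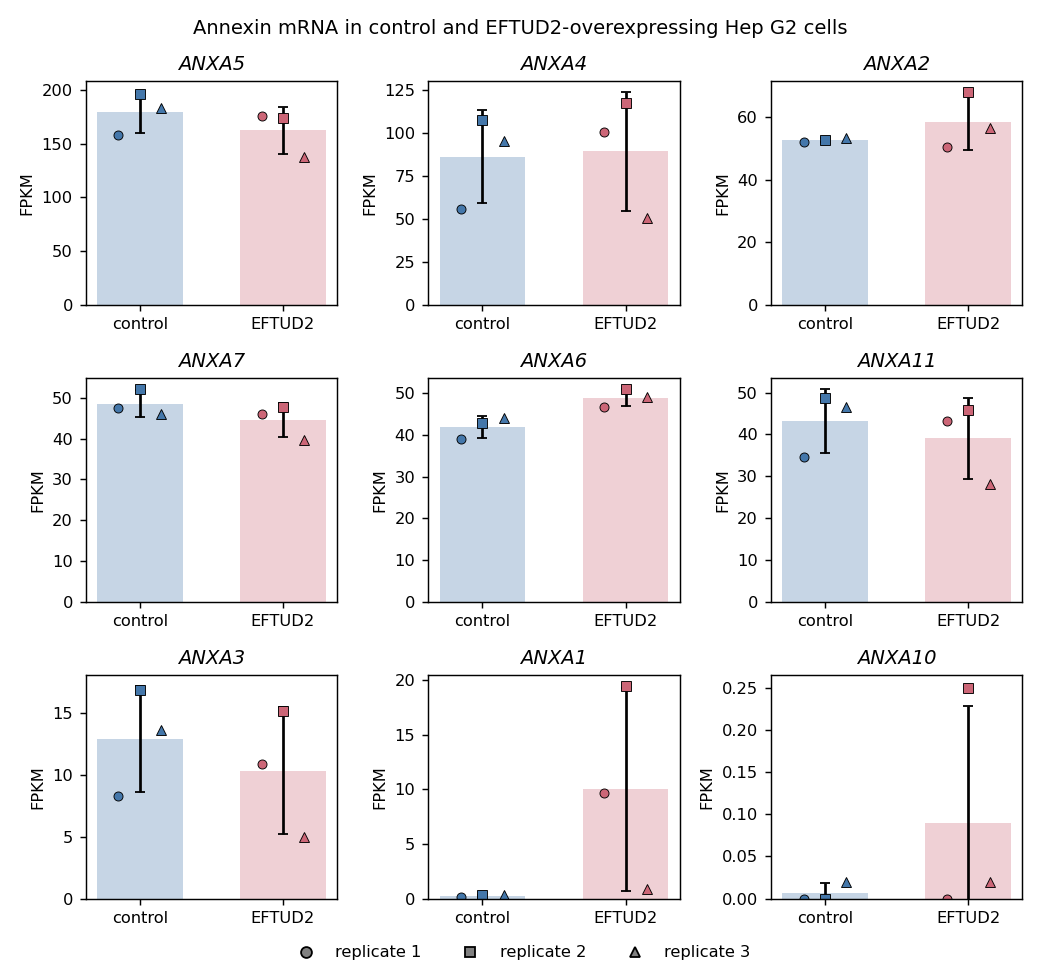
FPKM (linear axes from 0, scaled to each gene) of the 9 annexins in control and EFTUD2 libraries. Bars are group means with the SD of 3 libraries, and points are the libraries by replicate number. Only for ANXA1 and ANXA6 do all EFTUD2 points lie above all control points, and the ANXA1 point of EFTUD2 replicate 3 (0.9 FPKM) lies close to the controls.

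The annexins covered a wide range of levels in Hep G2 cells, and some neighbours in the order changed places. ANXA5 was first in each of the 6 libraries, between 137 and 196 FPKM. ANXA4 and ANXA2 shared the next places, with ANXA4 above ANXA2 in 5 libraries and below it in EFTUD2 replicate 3. ANXA7, ANXA6 and ANXA11 formed a group between 28.1 and 52.3 FPKM whose order changed from library to library. ANXA3 came next, at 4.96 to 16.8 FPKM, and ANXA1 and ANXA10 came last in each control. In EFTUD2 replicate 2, ANXA1 passed ANXA3, with 19.5 against 15.1 FPKM.

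Summed over the 9 members, annexin mRNA came to 395, 517 and 482 FPKM in the controls, against 483, 539 and 367 FPKM in EFTUD2 replicates 1 to 3. The 2 groups overlapped, with means of 465 ± 62.9 and 463 ± 87.7 FPKM (SD, n = 3 each; exact permutation test, two-sided p = 1). ANXA5 alone made up between 32.3% and 40.0% of this sum. The share of ANXA1 was at most 0.071% in the controls and 2.01%, 3.62% and 0.25% in EFTUD2 replicates 1 to 3.

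**Figure D2:**
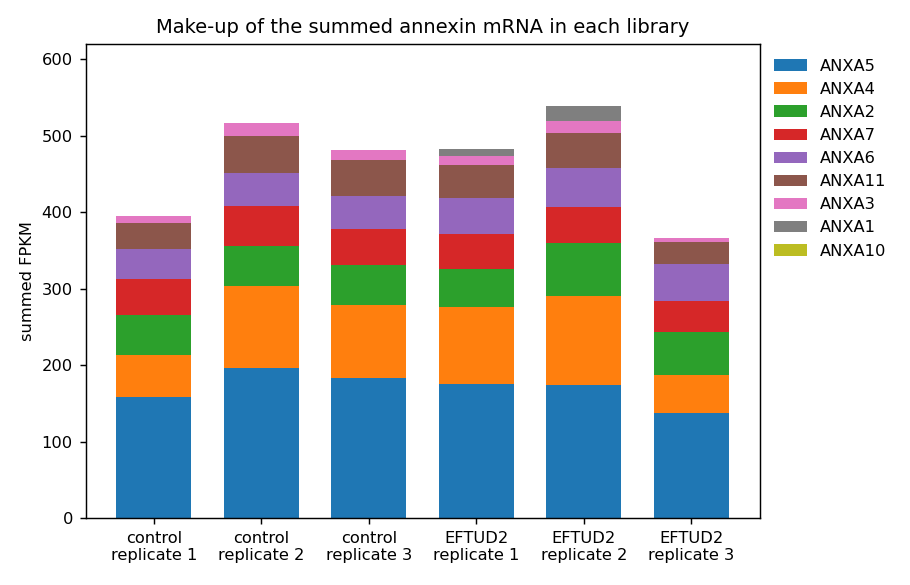
Summed FPKM of the 9 annexins in each of the 6 libraries (linear axis from 0), with 1 colour per gene. The lowest sums are those of control replicate 1 (395 FPKM) and EFTUD2 replicate 3 (367 FPKM), and the grey ANXA1 segment is visible only in EFTUD2 replicates 1 and 2.

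ANXA1 (Entrez gene 301) encodes an anti-inflammatory annexin that restrains cytosolic phospholipase A2 and, once outside the cell, binds formyl peptide receptors. It lies on the plus strand of chromosome 9 from 73151757 to 73170393 (GRCh38, GENCODE release 29). In order of replicate, its FPKM were 0.16, 0.33 and 0.34 in the controls and 9.68, 19.5 and 0.90 in EFTUD2 replicates 1 to 3. Each EFTUD2 library lay above each control, and EFTUD2 replicate 3 was 2.65 times the highest control. The levels within the EFTUD2 group were very unequal, since replicate 1 was at 0.50 and replicate 3 at 0.046 times the level of replicate 2. On the log2 scale limma put the difference at 2.55 ± 0.79 (SE), with a 95% interval from 0.66 to 4.44 and an adjusted p of 0.40; the exact permutation test gave p = 0.1. Without EFTUD2 replicate 3 the log2 difference was 3.54 ± 0.27 (SE) and the adjusted p from limma 0.013, so whether ANXA1 passed the threshold depended on this library. ANXA1 also passed it in limma with libraries weighted by their agreement with their group (log2 difference 3.16, adjusted p = 0.0052). That fit gave EFTUD2 replicates 1 to 3 weights of 4.1, 1.2 and 0.12. Control replicates 1 to 3 had weights of 0.48, 1.0 and 3.5. The weighted fit thus rests largely on EFTUD2 replicate 1 and control replicate 3, and its weights were estimated from these same data. Over all 16 alternative fits the log2 difference of ANXA1 stayed between 1.82 and 4.35, and its adjusted p between 0.0052 and 0.68.

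**Figure D3:**
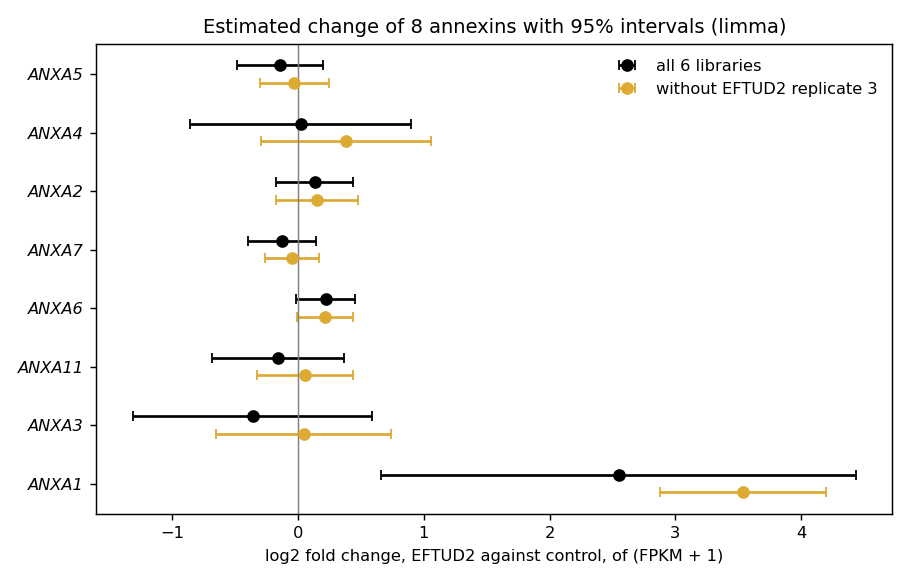
Log2 difference of FPKM + 1 (EFTUD2 against control) for the 8 annexins tested, with 95% intervals from limma, for all 6 libraries (black) and without EFTUD2 replicate 3 (yellow). The interval of ANXA1 lies above 0 in both fits and narrows from 0.66 to 4.44 to 2.88 to 4.19 without that library. The intervals of the other 7 members include 0 in both.

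The sequence before the start of a gene is shown for ANXA1 and ANXA10, which were near 0 in the controls, and for ANXA2 and ANXA5 as examples of members above 50 FPKM in all libraries. ANXA4, also above that level, has 2 windows, neither with a TATA box match, and is not shown. The windows are the 250 bases before the RefSeq start (GRCh38.p14), at chr9:73151615-73151864 on the plus strand for ANXA1, chr4:168092287-168092536 on the plus strand for ANXA10, chr15:60397987-60398236 on the minus strand for ANXA2 and chr4:121696981-121697230 on the minus strand for ANXA5. The GENCODE start lies within the window for ANXA1, ANXA10 and ANXA5, and outside it for ANXA2. Each is written 5′ to 3′ on the strand of the gene, and capitals mark matches, on either strand, to 6 motifs. The motifs are the TATA box (searched as TATAAA), the box named CCAAT, the GC box (searched as GGGCGG), the core of STAT sites (searched as TTCNNNGAA), the AP-1 site (searched as TGANTCA) and the E box (searched as CACGTG). The 3 GC box matches of ANXA2 overlap each other at their ends, and no other matches shown overlap.
ANXA1: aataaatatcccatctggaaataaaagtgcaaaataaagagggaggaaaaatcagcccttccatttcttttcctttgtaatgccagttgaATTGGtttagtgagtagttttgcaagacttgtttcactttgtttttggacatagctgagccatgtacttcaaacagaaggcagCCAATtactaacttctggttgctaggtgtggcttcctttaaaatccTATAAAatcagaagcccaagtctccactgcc
ANXA10: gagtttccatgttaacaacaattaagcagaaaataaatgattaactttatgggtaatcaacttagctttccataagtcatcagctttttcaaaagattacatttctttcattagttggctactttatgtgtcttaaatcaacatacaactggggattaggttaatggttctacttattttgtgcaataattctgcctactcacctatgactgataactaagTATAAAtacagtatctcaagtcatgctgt
ANXA2: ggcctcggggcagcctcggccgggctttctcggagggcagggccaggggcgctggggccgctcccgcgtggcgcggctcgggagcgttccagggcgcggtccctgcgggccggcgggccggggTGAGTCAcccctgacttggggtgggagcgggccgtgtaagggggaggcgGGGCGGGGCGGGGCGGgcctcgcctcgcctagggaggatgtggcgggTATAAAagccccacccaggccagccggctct
ANXA5: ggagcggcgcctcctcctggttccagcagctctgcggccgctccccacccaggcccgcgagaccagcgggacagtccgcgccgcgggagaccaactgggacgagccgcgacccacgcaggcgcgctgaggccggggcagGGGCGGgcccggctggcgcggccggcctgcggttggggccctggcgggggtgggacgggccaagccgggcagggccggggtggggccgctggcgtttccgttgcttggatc

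The ANXA1 and ANXA10 windows were poor in G and C, at 38.4% and 31.2%, and the ANXA2 and ANXA5 windows rich, at 78% and 78.8%, beside a median of 58% over 35116 windows. A TATAAA match began 31 bases before the start in both ANXA1 and ANXA2 and 29 bases before it in ANXA10, and 10.7% of all windows hold such a match. Of the 13 windows of the 9 members, 4 held TATAAA, among them an ANXA11 window not shown, 61 bases before the start. CCAAT was in 4 of them and GGGCGG in 7. The ANXA1 window also held 2 CCAAT matches, 77 and 160 bases before the start (32.0% of all windows hold at least 1), and no GGGCGG match, a motif of 42.6% of all windows. TTCNNNGAA, in 6.57% of all windows, was in none of the 13 windows of the 9 members. TGANTCA was in the ANXA2 window alone (6.57% of all windows), and CACGTG in 1 window each of ANXA4 and ANXA6 (6.34%). All 9 members had at least 1 window in the table. These matches describe letters and say nothing of binding.

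ANXA5 (Entrez gene 308) encodes the annexin whose labelled protein is used to stain dying cells, since it binds phosphatidylserine that has reached the outer membrane face. It lies on the minus strand of chromosome 4 from 121667955 to 121697113 (GRCh38). Its FPKM were 158, 196 and 183 in the controls and 176, 174 and 137 in EFTUD2 replicates 1 to 3. The groups overlapped, and the log2 difference was -0.14 ± 0.14 (SE) with a 95% interval from -0.49 to 0.20 (limma, adjusted p = 0.63). The interval corresponds to a fold between 0.71 and 1.15, and without EFTUD2 replicate 3 the log2 difference was -0.028.

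ANXA4 (Entrez gene 307), found at the apical side of epithelial cells, lies on chromosome 2 from 69644425 to 69827100 on the plus strand (GRCh38). It stood at 55.5, 107 and 95.1 FPKM in the controls, against 100.1, 117 and 50.4 FPKM in the EFTUD2 libraries. The lowest value of each group, in control replicate 1 and EFTUD2 replicate 3, lay at or under 55.5 FPKM and the other 4 at or above 95.1 FPKM, so that the spread within a group was larger than the difference between groups. The log2 difference was 0.02 ± 0.37 (SE; adjusted p = 0.98, limma), with a 95% interval from -0.86 to 0.90. It was 0.38 without EFTUD2 replicate 3 (adjusted p = 0.53) and -0.26 without control replicate 1.

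ANXA3 (Entrez gene 306), an annexin of neutrophils that is also described in progenitor-like liver tumor cells, lies on chromosome 4 from 78551519 to 78610451 on the plus strand (GRCh38). As for ANXA4, control replicate 1 and EFTUD2 replicate 3 were its lowest libraries. Its FPKM were 8.33, 16.8 and 13.6 in the controls and 10.9, 15.1 and 4.96 in the EFTUD2 libraries, and the groups overlapped. Its log2 difference of -0.36 ± 0.40 (SE; adjusted p = 0.66, limma) had the widest interval of the members other than ANXA1, from -1.31 to 0.59, and its sign turned without EFTUD2 replicate 3 (0.045).

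ANXA2 (Entrez gene 302) forms a heterotetramer with S100A10 that docks tissue plasminogen activator and plasminogen at the cell surface. It lies on chromosome 15 from 60347134 to 60402883 on the minus strand (GRCh38). Its 3 control values were close together, at 52.1, 52.7 and 53.3 FPKM, and the EFTUD2 libraries stood at 50.5, 68.1 and 56.4 FPKM. EFTUD2 replicate 1 lay below all controls and replicates 2 and 3 above them. The log2 difference was 0.13 ± 0.13 (SE), with a 95% interval from -0.17 to 0.44 and an adjusted p of 0.61 in limma. It was 0.15 without EFTUD2 replicate 3 and 0.017 without EFTUD2 replicate 2. Reads of ANXA2 can also match its processed pseudogenes: 41.5% of the stretches of 50 bases in its principal transcript occur in ANXA2P1, ANXA2P2 or ANXA2P3, so its level is uncertain. The same comparison with pseudogenes was not made for the other members. With the other annexin genes compared, each of the 9 members shared 0% of such stretches.

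S100A10 stood at 70.3, 90.4 and 82.9 FPKM in the controls, against 81.2, 80.0 and 68.0 FPKM in the EFTUD2 libraries. The ratio of ANXA2 to S100A10 within a library, which multiplying the library by a constant does not change, was 0.74, 0.58 and 0.64 in the controls and 0.62, 0.85 and 0.83 in the EFTUD2 libraries. These ranges overlapped (exact permutation test of the log2 ratios, two-sided p = 0.3), and the mean log2 ratio differed by 0.22.

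ANXA6 (Entrez gene 309) is the annexin with a doubled core, which sits on late endosomes and holds the Ras regulator RASA1 and protein kinase C alpha near membranes. Its principal transcript has 673 codons, 2.10 times the 320 of ANXA5, and its gene lies on chromosome 5 from 151100712 to 151157882 on the minus strand (GRCh38). Its FPKM were 38.9, 42.9 and 43.99 in the controls and 46.7, 50.9 and 49.2 in the EFTUD2 libraries. Its groups did not overlap, with EFTUD2 higher (two-sided p = 0.1 by the exact permutation test) and a ratio of means of 1.17. With a log2 difference of 0.22 ± 0.10 (SE), a 95% interval from -0.01 to 0.45 and an adjusted p of 0.41, it did not pass limma's threshold. EFTUD2 replicate 3 did not stand apart here: without it the log2 difference was also 0.22. In the alternative fits it stayed between 0.14 and 0.33 and its adjusted p at 0.20 or above. Of these partners, RASA1 stood at 8.39 to 9.07 FPKM in the controls and 6.16 to 8.15 FPKM in the EFTUD2 libraries. Its groups did not overlap (adjusted p = 0.45, limma), as for 19.4% of all genes tested with EFTUD2 lower. PRKCA overlapped between the groups, at 12.2 to 14.2 and 9.77 to 13.1 FPKM.

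ANXA7 and ANXA11 are the annexins with long N-terminal arms, with 488 and 505 codons. ANXA7 (Entrez gene 310), which promotes the fusion of secretory granules, lies on chromosome 10 from 73375101 to 73414076 on the minus strand (GRCh38). It stood at 47.5, 52.3 and 46.2 FPKM in the controls and 46.1, 47.8 and 39.8 FPKM in the EFTUD2 libraries, overlapping groups with a log2 difference of -0.13 ± 0.11 (SE; adjusted p = 0.59, limma), or -0.049 without EFTUD2 replicate 3. ANXA11 (Entrez gene 311), which tethers RNA granules to lysosomes, lies on the same chromosome from 80150889 to 80205572 on the minus strand. Its FPKM were 34.5, 48.8 and 46.4 in the controls and 43.2, 45.9 and 28.1 in the EFTUD2 libraries, overlapping groups again with the lowest values in control replicate 1 and EFTUD2 replicate 3. The log2 difference of -0.16 ± 0.22 (SE; adjusted p = 0.73, limma) turned to 0.057 without EFTUD2 replicate 3.

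For 4 of the 8 members tested (ANXA3, ANXA4, ANXA5 and ANXA11), control replicate 1 and EFTUD2 replicate 3 were the 2 lowest libraries. The same held for 16.4% of all genes tested. The summed level of the hepatocyte markers, carried by ALB, AFP, SERPINA1 and apolipoprotein genes, was highest in the same libraries. It came to 13503, 9278 and 11563 FPKM in the controls and 11390, 11544 and 16341 FPKM in the EFTUD2 libraries. SERPINA1 itself stood at 1937, 1901 and 2448 FPKM in the controls, against 3075, 3190 and 3642 FPKM in the EFTUD2 libraries. The groups did not overlap, with EFTUD2 higher, for 2 of the 10 markers (SERPINA1 and APOB), against 7.92% of all genes tested. The transcription factor gene HNF4A went with these annexins, with its lowest values in EFTUD2 replicate 3 (47.3 FPKM) and control replicate 1 (65.4 FPKM). FOXA2 did not, since it was lowest in EFTUD2 replicate 3 (17.9 FPKM) but highest in control replicate 1 (36.9 FPKM). All 10 of these markers were above 0 in each library. The part of these differences between libraries in the annexin values was not tested.

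ANXA10 (Entrez gene 11199), an annexin of gastric epithelium, lies on chromosome 4 from 168092515 to 168187690 on the plus strand (GRCh38). It was listed at 0, 0 and 0.02 FPKM in the controls, against 0, 0.25 and 0.02 FPKM in the EFTUD2 libraries. EFTUD2 replicate 2 was the only library above 0.02 FPKM, and a level this low cannot be compared between groups.

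Besides the 9 members, 4 further annexins and ANXA2R, a membrane protein named for its binding of ANXA2, were in the table and were all tested. In this list of 5 genes, 0 had an adjusted p under 0.05 with limma, 1 was higher at an unadjusted p under 0.05 and the median log2 difference was 0.13. ANXA8, an annexin of stratified epithelia that was named after its values were seen, stood at 0.05, 0 and 0 FPKM in the controls, against 1, 1.63 and 0.05 FPKM in EFTUD2 replicates 1 to 3. Its near copy ANXA8L1 had no control above 0 FPKM, while the EFTUD2 libraries showed 0.54, 1.5 and 0.03 FPKM. Of the stretches of 50 bases in the principal ANXA8 transcript, 84.5% occur in ANXA8L1, so the counting could split reads between them, and their sum is the safer value: 0.05, 0 and 0 FPKM in the controls and 1.54, 3.13 and 0.08 FPKM in the EFTUD2 libraries. As for ANXA1, EFTUD2 replicate 2 was highest and replicate 3 close to the controls. With all libraries weighted equally the adjusted p of both was 0.40 in limma. Without EFTUD2 replicate 3 it was 0.028 for ANXA8 and 0.093 for ANXA8L1, and with library weights 0.0085 and 0.038. Both genes passed the filter on low values only through the EFTUD2 libraries, so these p-values are no separate support for a difference. ANXA9 overlapped between the groups, at 6.19 to 10.8 FPKM in the controls and 6.53 to 12.7 FPKM in the EFTUD2 libraries, as did ANXA13, at 0.91 to 3.70 and 1.80 to 2.53 FPKM, and ANXA2R, at 0.38 to 0.55 and 0.34 to 0.61 FPKM.

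The S100 and EF-hand proteins that bind annexin arms were mostly abundant. Of 8 such genes tested, 0 had an adjusted p under 0.05 with limma, 1 was higher and 0 were lower at an unadjusted p under 0.05, and the median log2 difference was -0.11. The most abundant were S100A1, at 142.7 to 178.2 FPKM over the 6 libraries, S100A6 at 56.7 to 141.4 FPKM and S100A11, the partner of ANXA1, at 28.8 to 138.3 FPKM. S100A11 had its lowest values in control replicate 1 (60.7 FPKM) and EFTUD2 replicate 3 (28.8 FPKM), the same libraries as for ANXA3, ANXA4, ANXA5 and ANXA11. The ratio of ANXA1 to S100A11 was at most 0.0034 in the controls and 0.11, 0.15 and 0.031 in EFTUD2 replicates 1 to 3.

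Among these genes tested, only SRI had groups that did not overlap, with EFTUD2 higher, as for 7.92% of all genes tested. SRI encodes sorcin, a calcium sensor that binds ANXA7, and it passed the filter on low values only through the EFTUD2 libraries. Its FPKM were 0.01, 0.01 and 0.03 in the controls and 1.82, 4.97 and 0.20 in EFTUD2 replicates 1 to 3 (log2 difference 1.42 ± 0.52 SE; adjusted p = 0.40, limma; 0.048 without EFTUD2 replicate 3). PDCD6, the calcium sensor that binds ANXA11 and ANXA7, overlapped between the groups at 51.9 to 54.9 and 38.7 to 59.0 FPKM. S100A4, a partner of ANXA2, was chosen for mention after its values were seen: it stood at 20.2, 28.2 and 29.2 FPKM in the controls, against 73.3, 133.8 and 13.7 FPKM in the EFTUD2 libraries, so that replicate 3 lay below all controls (limma, adjusted p = 0.53; 0.048 without that replicate).

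**Figure D4:**
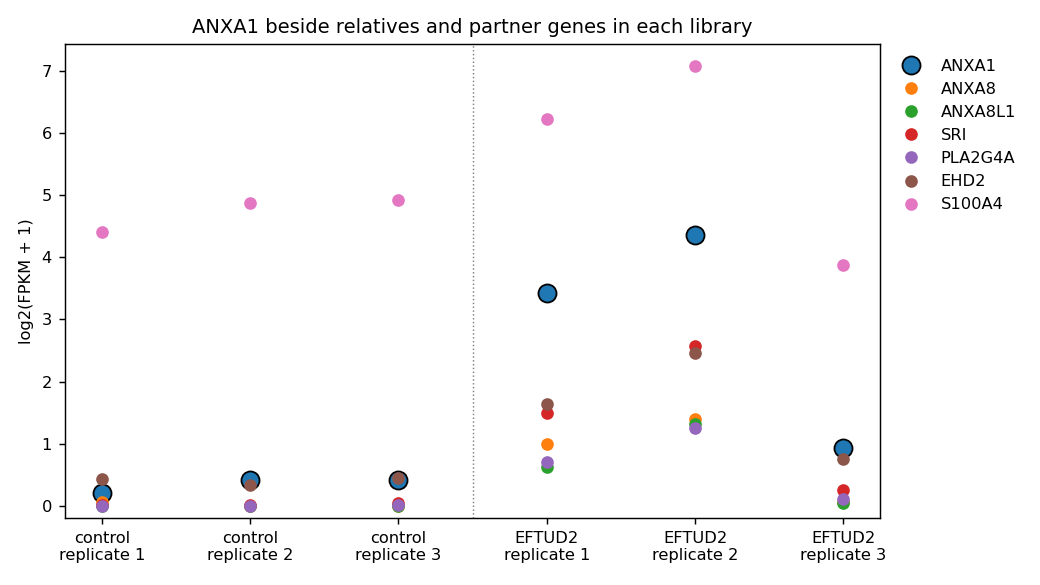
Log2(FPKM + 1) of ANXA1, 2 further annexins, SRI, PLA2G4A, EHD2 and S100A4 in each of the 6 libraries. In the EFTUD2 group each of the 7 genes is highest in replicate 2 and lowest in replicate 3, where S100A4 lies below its 3 controls. ANXA8 and S100A4 were chosen after their values were seen. ANXA8L1, SRI, PLA2G4A and EHD2 were named because their groups do not overlap with a log2 difference of at least 0.5 in size. PLAU, named by the same rule but lower in the EFTUD2 libraries, is not shown. ANXA8 and ANXA8L1 are near copies, so their values are not separate.

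The receptors through which secreted ANXA1 acts were at or near 0. FPR1 and FPR2 were listed at 0 in all 6 libraries, and FPR3 at 0.03 FPKM in EFTUD2 replicate 3 and 0 in the others. PLA2G4A, the cytosolic phospholipase that ANXA1 restrains, was at 0, 0 and 0.01 FPKM in the controls, against 0.63, 1.39 and 0.08 FPKM in the EFTUD2 libraries (adjusted p = 0.40 in limma; 0.061 without EFTUD2 replicate 3). PLA2G4A passed the filter on low values only through the EFTUD2 libraries. Of the 5 lipid and signaling targets tested, 0 had an adjusted p under 0.05 with limma, 1 was higher at an unadjusted p under 0.05 and 0 were lower. The most abundant of them, the kinase PRKCD, overlapped between the groups at 16.4 to 19.3 and 16.0 to 18.8 FPKM.

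The plasminogen system that meets ANXA2 at the cell surface gave 0 genes of 5 with an adjusted p under 0.05 in limma, and 0 higher and 1 lower at an unadjusted p under 0.05. PLAU, which encodes urokinase, stood at 6.05, 7.41 and 7.82 FPKM in the controls, against 4.41, 4.28 and 2.97 FPKM in the EFTUD2 libraries. Each EFTUD2 library lay below each control, as for 19.4% of all genes tested. The log2 difference of PLAU was -0.74 ± 0.17 (SE), with an adjusted p of 0.39 in limma and a two-sided p = 0.1 by the exact permutation test. PLAUR, the urokinase receptor, overlapped at 1.67 to 3.58 and 1.93 to 7.41 FPKM. PLAT, which encodes tissue plasminogen activator, stayed between 0.26 and 0.40 FPKM, and PLG, which encodes plasminogen, between 0.13 and 1.11 FPKM.

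Among 9 tested genes of plasma membrane repair, in which annexins seal the wound edge, 0 had an adjusted p under 0.05 with limma, and 1 was higher and 1 lower at an unadjusted p under 0.05. EHD2, an ATPase of caveolar necks, was at 0.35, 0.27 and 0.36 FPKM in the controls, against 2.10, 4.52 and 0.69 FPKM in EFTUD2 replicates 1 to 3 (log2 difference 1.21 ± 0.39 SE; adjusted p = 0.40, limma; 0.048 without EFTUD2 replicate 3). CHMP4B, the ESCRT-III subunit that closes membrane necks, was lower in each EFTUD2 library, as were 19.4% of all genes tested. It stood at 63.5 to 71.1 FPKM against 87.2 to 93.4 FPKM (log2 difference -0.40 ± 0.10 SE, adjusted p = 0.39 in limma). CAPN1, a calcium-activated protease, was next in abundance, with overlapping groups at 49.1 to 63.9 and 29.9 to 55.4 FPKM. The large scaffold AHNAK, which ANXA2 and S100A10 recruit, overlapped at 23.9 to 31.9 and 24.9 to 28.7 FPKM.

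The profile of ANXA1 over the 6 libraries was compared with that of 12554 other genes whose mean reached 1 FPKM, by the root mean square of the difference in log2(FPKM + 1) after the control mean of each gene was subtracted. The nearest was a locus listed under an identifier of the sequencing provider (difference 0.11), at 9.01, 22.9 and 0.78 FPKM in EFTUD2 replicates 1 to 3. It was followed by IGFBP7, which encodes a secreted growth factor binding protein (0.17), at 9.20, 24.8 and 1.40 FPKM, and by BACE2, a membrane-bound protease (0.23), at 6.52, 16.5 and 0.59 FPKM. The median difference over all these genes was 2.13. The controls reached at most 0.50 FPKM for IGFBP7 and 0.31 FPKM for BACE2.

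Some markers of other cell types had their highest levels in the same libraries as ANXA1, and 0 of the markers tested had an adjusted p under 0.05 with limma. Of 10 basal and squamous epithelial markers, 2 of the 5 tested were higher and 1 was lower at an unadjusted p under 0.05. Over all genes tested, 4.4% were higher and 7.9% lower at this threshold, which also holds for the counts of markers below. Their summed level was 39.7 to 57.2 FPKM in the controls and 118, 204 and 44.4 FPKM in EFTUD2 replicates 1 to 3. KRT17 made up most of it in EFTUD2 replicates 1 and 2 (1.12 to 1.80 FPKM in the controls, against 66.9, 135 and 9.29 FPKM in the EFTUD2 libraries) and SFN in the other libraries, while KRT5 was at 0 in all. The adjusted p of KRT17 was 0.31 in limma, and 0.011 without EFTUD2 replicate 3. KRT15 went the other way, at 0.95 to 1.13 FPKM in the controls and 0.32 to 0.46 FPKM in the EFTUD2 libraries (adjusted p = 0.27, limma). Of 10 fibroblast markers, 1 of the 5 tested was higher and 0 were lower, and the sum was 21.8 to 30.3 FPKM against 76.2, 139 and 16.1 FPKM, most of it S100A4. COL1A2 was at 0 in all libraries, COL3A1 at 0 in the controls, against 0.62, 1.49 and 0.14 FPKM in the EFTUD2 libraries (limma, adjusted p = 0.40; 0.069 without EFTUD2 replicate 3). COL1A1 and LUM were also highest in EFTUD2 replicate 2, at 2.05 and 0.56 FPKM. PDGFRB was instead highest in EFTUD2 replicate 3. It stood at 0.41 to 1.43 FPKM in the controls, against 1.10, 0.68 and 2.07 FPKM in the EFTUD2 libraries. DCN, PDGFRA, FAP and THY1 stayed at or under 0.07 FPKM. Of 10 macrophage markers, PTPRC was at no more than 0.02 FPKM and TYROBP at 0, while CD68 was at 16.7 to 33.4 FPKM. Of 10 endothelial markers, KDR and EMCN were at no more than 0.01 FPKM and CDH5 at no more than 0.28 FPKM, while ENG was at 1.24 to 4.21 FPKM. The groups did not overlap for CD14 (0.60 to 1.03 FPKM in the controls and 1.41 to 2.51 FPKM in the EFTUD2 libraries), VWF and CDH5, which were higher, nor for PECAM1 and ESAM, which were lower. Over all genes tested, the groups did not overlap for 7.92% with EFTUD2 higher and 19.4% with EFTUD2 lower. Of the other macrophage markers tested, AIF1, ITGAM and LYZ had lower means in the EFTUD2 libraries and CD68 a higher one, each with overlapping groups. The macrophage sum, most of it LYZ, was 776 to 2281 FPKM against 885 to 1750 FPKM with 1 of 5 tested genes higher, and the endothelial sum, led by ESAM, 17.7 to 18.8 FPKM against 6.69 to 12.2 FPKM with 2 of 6 tested genes higher and 1 lower. Of the markers counted as higher, KRT14, COL3A1 and CDH5 passed the filter on low values only through the EFTUD2 libraries. The part of these markers in the ANXA1 values was not tested.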

How the data were processed

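RNA-Seq was performed by the authors on poly-A selected mRNA of 6 Hep G2 libraries (3 control, 3 EFTUD2) on the BGISEQ-500 platform. The authors deposited 1 table of FPKM values, rounded to 2 decimals; the submitters' processing notes name HISAT2, Bowtie2 and RSEM among the tools and hg38 as the build. Read counts are unknown, since low values showed no common step between libraries (the commonest ratio held at most 1.96% of genes), so no counting interval is given. The table columns were mapped to samples by their names.

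Genes averaging 0.1 FPKM or more were compared as log2(FPKM + 1) with limma 3.58.1 (lmFit, eBayes with trend) in R 4.3.3, after the fit was tested on simulated data. Single values were compared by exact permutation tests (scipy 1.17.1, Python 3.11.15). Alternatives were pseudocounts of 0.1 and 0.01, a filter at 1 FPKM or none, 3 other scalings, robust estimation, library weights, a replicate block and each library left out in turn. The members and gene lists were chosen with earlier results of these data known. Named were all members, list genes whose groups do not overlap with a log2 difference of at least 0.5 in size, up to 3 list genes of highest level, and the 3 genes nearest in profile to ANXA1; others were named after their values were seen. A gene that this rule names is not reported here. Gene positions are from GENCODE release 29, promoter windows from RefSeq (GRCh38.p14).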

Additional observations from a re-analysis of the deposited data

How the results depend on the processing

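With libraries weighted by agreement, 1355 genes over the whole table and 1 of the 9 members (ANXA1) passed the adjusted threshold, against 0 and 0 with all libraries weighted equally. With each library left out in turn these counts ranged from 0 to 167 and from 0 to 1, and both upper values are those without EFTUD2 replicate 3. In the remaining alternatives both counts were 0. The log2 difference of ANXA3 ranged from -0.67 to 0.045, that of ANXA4 from -0.26 to 0.38 and that of ANXA11 from -0.31 to 0.057 across the fits with 1 library left out, and ANXA4 also turned to -0.022 when libraries were scaled to a common sum. ANXA1, ANXA2, ANXA5, ANXA6 and ANXA7 kept their sign in all 16 alternatives. The difference in summed annexin level, -1.91 FPKM with the values as deposited, turned to 31.3 FPKM with median of ratios scaling and 8.28 FPKM with quantile normalization, and ranged from -39.9 to 46.05 FPKM with 1 library left out, with an exact permutation p of at least 0.4 throughout. The group difference in the log2 ratio of ANXA2 to S100A10 lay between 0.14 and 0.36 with 1 library left out. At an unadjusted p under 0.05, genes higher and lower numbered 1883 and 2848 with library weights and 1363 and 1521 without EFTUD2 replicate 3, but 492 and 664, 377 and 719, and 429 and 771 without control replicates 1, 2 and 3; 480 were higher with a filter at 1 FPKM. The causes were not tested.

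The replicate numbers did not pair the libraries: deviations from the group means correlated over genes at -0.30, 0.35 and -0.09 for numbers 1 to 3. With the replicate number as a block, 0 genes passed the threshold, and ANXA1 kept a log2 difference of 2.55 (limma, adjusted p = 0.42). Levels under about 0.1 FPKM, as for ANXA10 and the formyl peptide receptors, lie close to the rounding of the table and limit what can be compared.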
